A study of Mus musculus with 6 samples.

Results

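The genes described here are 9 genes of the epithelial tight junction, chosen by name: the claudins Cldn2, Cldn3, Cldn4, Cldn7, Cldn15 and Cldn23, the scaffold gene Tjp1, the occludin gene Ocln and the junctional adhesion molecule gene F11r. They are 9 of the 21950 genes listed in both deposited columns, and all 9 passed a filter on low values, the lowest of them in either column being 11.7 units. RNA came from the ileum, the last stretch of the small intestine, of C57BL/6 mice aged 24 weeks. One group was wild type (3 mice). The other was TLR4ΔIEC (3 mice), in which Toll-like receptor 4, the sensor of bacterial lipopolysaccharide, is conditionally deleted in intestinal epithelial cells and kept in other cells of the tissue. The driver of the deletion is not given in the sources used here. Each genotype was deposited as 1 column of average coverage, in reads per base, shared by its 3 mice, so no value per mouse, spread between mice or test can be given, and each difference below compares a single pool with another. The libraries of each genotype were also sequenced as their own pool, so genotype and sequencing pool cannot be told apart.

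The wild type and TLR4ΔIEC columns had similar sums of average coverage, 699800 and 698473, which do not measure sequencing depth. For comparison they were scaled to a mean total of 1000000, and the scaled values are called units. Pairs of values are given with wild type first and TLR4ΔIEC second. Log2 ratios are TLR4ΔIEC over wild type of units plus 1, and the 8891 genes that averaged 5 units or more were kept. The targeted gene Tlr4 was weakly covered in this whole tissue, at 2.90 and 2.24 units, and the deleted stretch was not isolated, so it checks the labels only weakly. Ileal identity was plain in both columns: the ileal bile acid binding protein Fabp6 stood at 15350 and 13630 units, the ileal bile acid transporters Slc10a2 and Slc51b were at log2 ratios of 0.01 and -0.17, and the epithelial scaffold villin (Vil1) was at 588.9 and 584.4 units.

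Tight junctions are belts of membrane proteins that seal the space between neighbouring epithelial cells. Claudins are their backbone: some, such as claudin-3 and claudin-4, tighten the seal, while others, such as claudin-2 and claudin-15, form channels through which sodium and other small cations pass between cells. Occludin and the adhesion molecule JAM-A (F11r) share the belt, and ZO-1 (Tjp1) ties it to the actin cytoskeleton from inside the cell. In the small intestine, claudin-15 and claudin-2 supply the sodium that drives nutrient uptake.

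Of the 6 claudins, Cldn3, Cldn4, Cldn7 and Cldn23 were lower in the TLR4ΔIEC pool, and the channel claudins Cldn2 and Cldn15 were not. Cldn4 differed most of the 9 genes, 133.3 units in the wild type pool against 36.5 in the TLR4ΔIEC pool, or 3.65-fold lower (3.58-fold for units plus 1). Cldn3, Cldn23 and Cldn7 were 1.67-fold, 1.63-fold and 1.58-fold lower in units, and the other 5 genes lay within 0.3 log2 units of equality. Of the 9 genes, 1 was at least 2-fold lower, where 2.79% of all genes were, and 0 were at least 2-fold higher, where 1.29% were. A log2 ratio below 0 was found for 6 of the 9, against 47.4% of all genes, and the median ratio was -0.17 against 0.03 over all genes. That median was -0.05 with quantile normalization, -0.07 when totals without the 50 highest genes set the scale, and -0.41 with a filter at 20 units, which leaves out Tjp1. In such tissue RNA, fewer cells of a type and less RNA per cell cannot be told apart. Over all genes, 115 were 2-fold higher and 248 lower, and the split was 154 and 189 when totals without the 50 highest genes set the scale.

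**Figure D1:**
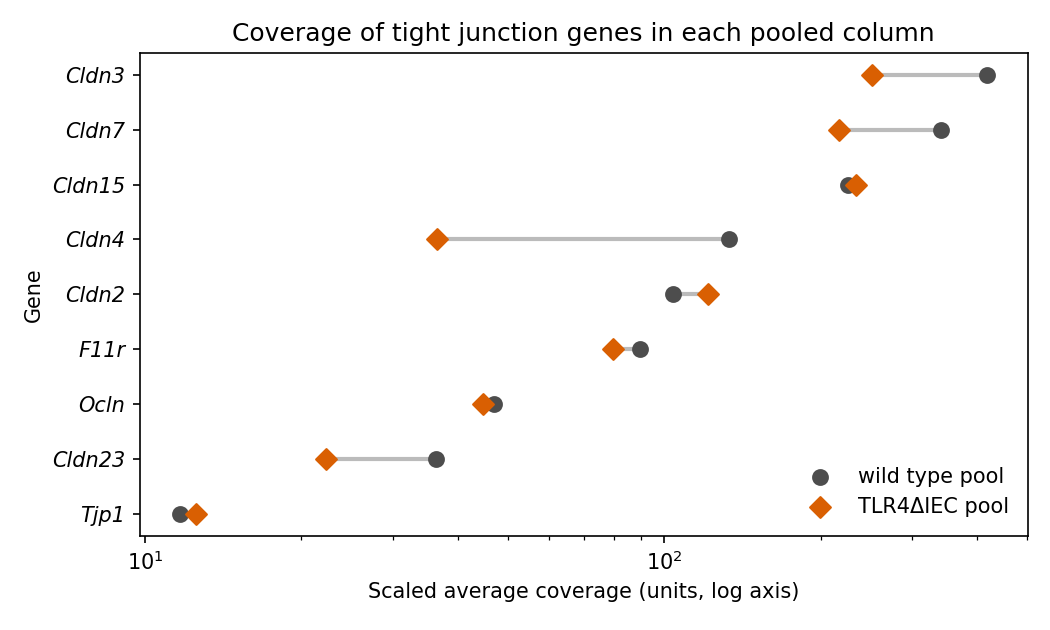
Scaled average coverage (units, log axis) of the 9 tight junction genes in the wild type pool (grey circles) and the TLR4ΔIEC pool (orange diamonds), 1 value per pool, ordered by wild type level. Cldn4 has the widest gap (133.3 and 36.5 units), Cldn3, Cldn7 and Cldn23 are lower in TLR4ΔIEC, and the remaining pairs nearly coincide.

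Average coverage is already per base of transcript, so the levels of different genes can be set side by side. This holds only as far as the lengths behind the averages are right. For Cldn7 that length was 1718 bases, against 1335 in the annotated transcript, and its place in the order rests on it. In the wild type pool Cldn3 (418.9 units) stood highest, followed by Cldn7 (341.5), Cldn15 (226.1), Cldn4 (133.3), Cldn2 (103.9), F11r (89.9), Ocln (47.0), Cldn23 (36.3) and Tjp1 (11.7). In the TLR4ΔIEC pool Cldn3 was again first, at 250.8 units, but Cldn15 (234.4) had passed Cldn7 (216.7), and Cldn2 (121.5), F11r (79.7) and Ocln (44.8) stood above Cldn4 (36.5). Cldn23 (22.3) and Tjp1 (12.5) stayed last. Cldn4 thus went from the 4th to the 7th place. With 1 value per pool, it cannot be said which neighbours in this order differ beyond the spread between mice.

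Cldn4 encodes claudin-4, a sealing claudin that is also a receptor for the enterotoxin of Clostridium perfringens. It is a gene of 1 exon on the minus strand of chromosome 5 (134945119 to 134946934, mm10), and its deposited coverage was 90.9 and 26.1 reads per base. Behind these averages are 164659 and 47254 sequenced bases spread over 1811 bases of transcript, close to the annotated 1816. The log2 ratio was -1.84. Among 1378 genes of similar level, meaning a mean between 0.5 and 2 times that of Cldn4, only 0.363% had a ratio as low, and the standard deviation of their ratios was 0.52.

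**Figure D2:**
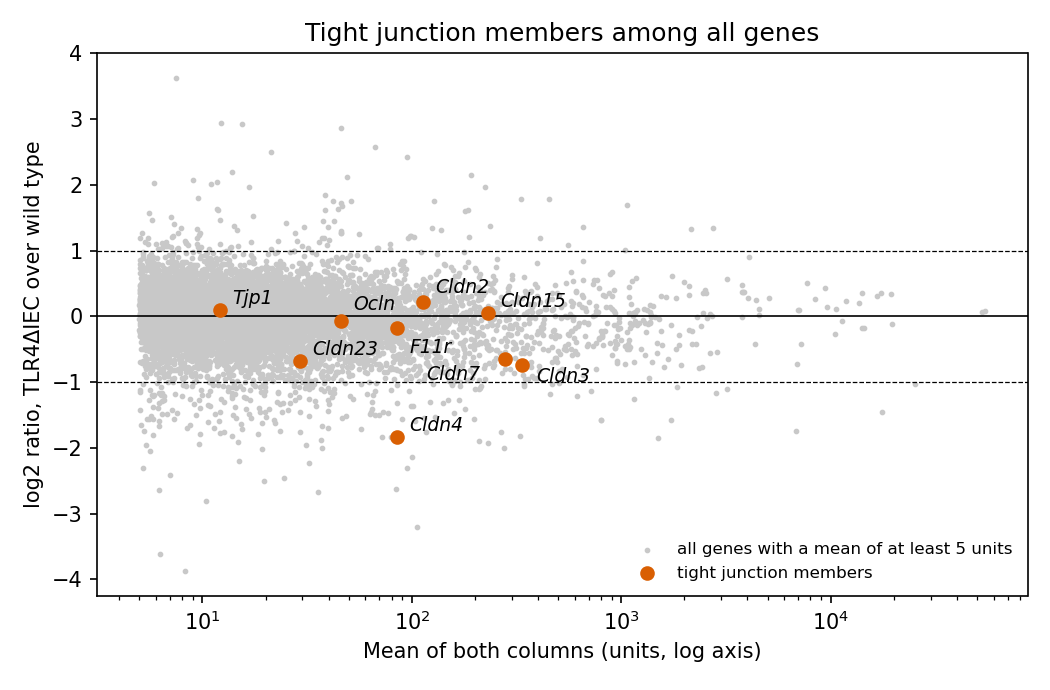
Log2 ratio of TLR4ΔIEC over wild type against the mean of both columns (units, log axis) for the 8891 genes that averaged 5 units or more (grey) and the 9 tight junction genes (orange, named), with dashed lines at 2-fold. Cldn4 at -1.84 lies outside the dashed lines, below nearly all genes of its level, and the other 8 lie inside them.

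Cldn3 encodes claudin-3, likewise a sealing claudin and an enterotoxin receptor. It also has 1 exon and lies on the plus strand of chromosome 5 (134986214 to 134987472). The starts of both genes are 39280 bases apart, they point away from each other, and 0 annotated protein-coding genes lie between them. Deposited coverage was 285.8 and 179.4 reads per base, from 360937 and 226631 sequenced bases over 1263 bases of transcript. The log2 ratio of -0.74 was not unusual for its level, since 12.9% of 396 genes of similar level had one as low. It was -0.31 once a trend on GC content and transcript length had been taken out.

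Because both neighbours were lower, the surrounding region was examined. Within 200000 bases on either side of the pair, 8 other protein-coding genes passed the filter, 4 with ratios below 0 and 4 above, from -0.82 to 0.48, and 0 differed by 2-fold. Abhd11, the next gene beyond Cldn3, was at 36.5 and 40.8 units. Mettl27 (listed under an older symbol), on the other side of Cldn4, was at 8.44 and 4.51 units, a log2 ratio of -0.78. These protein-coding neighbours thus lay on both sides of 0, where 47.4% of all genes lay below 0. Over all genes 1.29% were at least 2-fold higher and 2.79% lower, so 0 of 8 does not set the region apart. Among neighbours under the filter, Eln (-0.74), Stx1a (-0.66) and Cldn13 (-0.04) lay below 0, and Tmem270 (0.08) and Vps37d (0.03) above. Other kinds of gene were not looked up in this region. Abhd11os, by its symbol the opposite-strand gene of Abhd11, averaged 716.9 units over both pools. Its log2 ratio was -1.13, past 2-fold, and its part in the claudin values was not tested.

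The 250 bases before the starts of Cldn4 and Cldn3 are printed because these adjacent sealing claudins were both lower, and those of Cldn2 because it had the highest ratio among the 9 genes. Sequences are from RefSeq on GRCm38.p6, the assembly behind mm10, and read 5′ to 3′ on the gene's own strand. Of the 9 genes, 8 had an entry, and Cldn23 did not. Capitals mark matches on either strand to the TATA box (TATAAA), the CCAAT box (CCAAT), the GC box (GGGCGG) and the AP-1 site (TGANTCA). The E-box (CANNTG) was also searched and is not marked. It occurs in 66.2% of 32851 windows, and the windows of Cldn4, Cldn3 and Cldn2 hold 2, 0 and 1.
Cldn4, chr5:134946935-134947184, minus strand: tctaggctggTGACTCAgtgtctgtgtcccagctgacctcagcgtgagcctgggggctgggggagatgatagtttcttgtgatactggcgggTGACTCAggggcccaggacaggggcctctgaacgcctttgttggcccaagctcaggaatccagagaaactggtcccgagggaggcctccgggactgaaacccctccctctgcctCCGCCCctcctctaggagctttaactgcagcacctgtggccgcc
Cldn3, chr5:134985964-134986213, plus strand: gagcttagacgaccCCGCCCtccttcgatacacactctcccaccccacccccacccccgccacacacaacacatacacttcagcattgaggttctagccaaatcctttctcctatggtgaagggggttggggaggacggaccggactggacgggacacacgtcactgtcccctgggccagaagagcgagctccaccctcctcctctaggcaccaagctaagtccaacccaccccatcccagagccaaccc
Cldn2, chrX:139800558-139800807, plus strand: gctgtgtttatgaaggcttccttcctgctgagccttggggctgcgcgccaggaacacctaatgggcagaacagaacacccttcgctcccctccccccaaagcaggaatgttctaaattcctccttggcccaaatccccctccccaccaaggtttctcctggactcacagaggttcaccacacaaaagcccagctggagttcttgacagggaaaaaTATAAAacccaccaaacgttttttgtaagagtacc

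The Cldn4 window holds 2 AP-1 letter matches, beginning 240 and 158 bases before the start, and a GC box 44 bases before it. At least 1 AP-1 match occurs in 6.75% of 32851 promoter windows of the same length, and at least 2 occur in 0.338% of them. The cut at 2 follows the count in the Cldn4 window and was made for this motif alone, so 0.338% is not a test. AP-1 is the dimer of Fos and Jun proteins. Of the other windows, those of Cldn15 and F11r, whose coverage hardly differed between pools, hold 1 match each, and those of the other 5 genes hold 0. Cldn3 shows a GC box 236 bases before the start, a match found in 32.7% of windows, and Cldn2 a TATA box 35 bases before it, found in 12.4%. These are matches of letters, not measured binding.

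Cldn7 and Cldn23 stood with Cldn3. Cldn7 (chromosome 11, 69964779 to 69967885, 4 exons) encodes claudin-7, which sits along the sides of enterocytes as well as in the junction and is needed for an intact intestinal epithelium in mice. It had 341.5 and 216.7 units, a log2 ratio of -0.65, and 18.4% of 451 genes of similar level were as low. Its entry joins 2 RefSeq transcripts, so their share in the difference is not known. Cldn23 (chromosome 8, 35824712 to 35826559), which like Cldn3 and Cldn4 has 1 exon, had 36.3 and 22.3 units, a ratio of -0.68, and 7.81% of 3254 genes of similar level were as low. The 4 genes with log2 ratios below -0.6 are thus all claudins, and the 3 single-exon genes among the 9 are all in this group. The group was drawn with the values known, and single-exon genes were not examined over all genes.

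The channel claudins were at or slightly above equality. Cldn15 (chromosome 5, 136966616 to 136975858, 5 exons), whose product carries sodium back to the gut lumen for glucose uptake, was at 226.1 and 234.4 units, a log2 ratio of 0.05. Cldn2 (chromosome X, 139800828 to 139811386, 2 exons), a channel for cations and water typical of crypt cells, was at 103.9 and 121.5 units, a ratio of 0.22, and 24.7% of 1105 genes of similar level were as high. Neither difference stands apart from those of other genes. Cldn15 shares chromosome 5 with Cldn3 and Cldn4 but lies well outside their pair.

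Genes of the remaining belt proteins differed little. Ocln (chromosome 13, 100496507 to 100552718, 9 exons) was at 47.0 and 44.8 units, a ratio of -0.07 that was above 0 under scaling to the total (with or without the 50 highest genes) and for coverage as deposited. F11r (chromosome 1, 171437535 to 171464603, 10 exons) was at 89.9 and 79.7 units, a ratio of -0.17. Tjp1 (chromosome 7, 65296165 to 65527781, 28 exons) was at 11.7 and 12.5 units, a ratio of 0.10 that became -0.06 once the GC and length trend had been taken out. Its 2 RefSeq transcripts share 1 entry, so its isoforms were not separated.

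Within a column the ratio of a gene to another does not change when the column is multiplied by a single factor, so the make-up of the claudins was compared directly. A trend on GC content and length does not cancel in this way, and the shares and ratios below were not corrected for it. The shares also rest on the 1718 bases behind the Cldn7 averages, where the annotated transcript has 1335. With that trend taken out, log2 ratios were -0.31 for Cldn3, -0.46 for Cldn7, -1.67 for Cldn4, 0.13 for Cldn15 and 0.16 for Cldn2. The deposited coverage of 22 claudin genes summed to 875.1 and 644.1 reads per base, and the 6 member claudins held 98.2% and 98.0% of it. Cldn3, Cldn4 and Cldn7 together held 69.7% of the wild type sum and 56.0% of the TLR4ΔIEC sum, while Cldn2 and Cldn15 together held 25.7% and 39.5%. Cldn4 alone went from 10.4% to 4.05%, and Cldn15 from 17.6% to 26.0%. Cldn15 itself was covered at 154.2 and 167.7 reads per base, so its larger share mostly reflects the lower claudin sum. Coverage of Cldn2 was 0.779 times that of Cldn4 in wild type and 3.33 times in TLR4ΔIEC. Cldn3 to Cldn7, by contrast, kept a similar ratio, 1.23 and 1.16, and so did Cldn15 to Cldn2, at 2.18 and 1.93. This grouping of claudins was made with the values known.

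**Figure D3:**
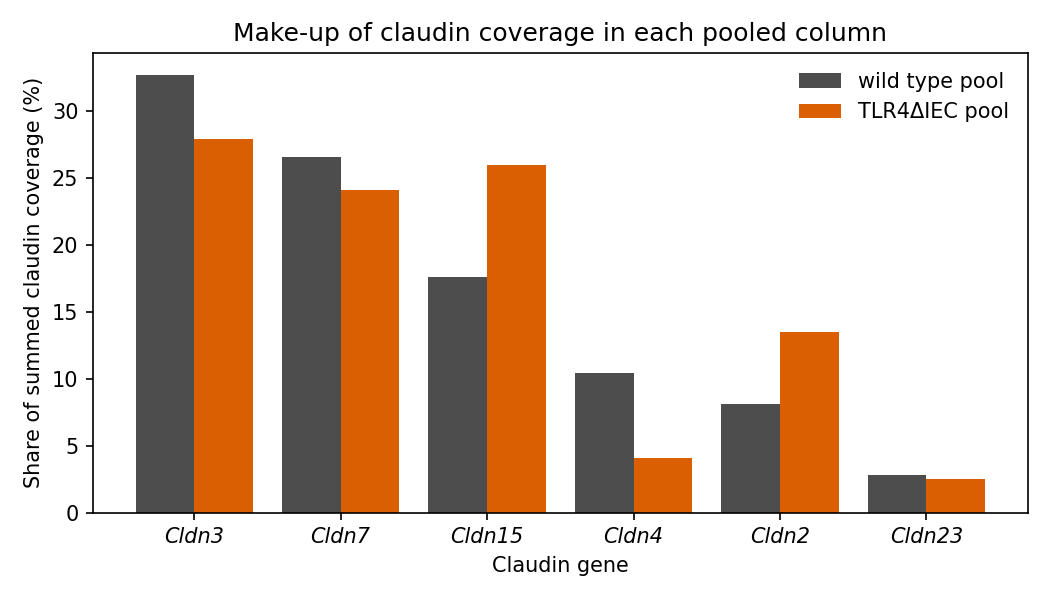
Share of the summed deposited coverage of 22 claudin genes (percent) held by each of the 6 member claudins in the wild type pool (grey) and the TLR4ΔIEC pool (orange), 1 value per pool. Cldn15 and Cldn2 take a larger share in TLR4ΔIEC (26.0% and 13.5%) than in wild type (17.6% and 8.10%), and Cldn4 a smaller one (4.05% and 10.4%). The sum itself is lower in TLR4ΔIEC (644.1 reads per base) than in wild type (875.1).

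Other junction genes lay within 2-fold. Among 9 further tight junction membrane genes that passed the filter, 4 lay above 0 and 5 below, with a median of -0.03 and 0 past 2-fold. The polarity gene Crb3 was lowest, at 62.3 and 38.1 units (-0.69). Lsr, the angulin of tricellular contacts, was at -0.13, Igsf5 at -0.13 and Marveld3, a relative of occludin, at -0.03. Of 16 plaque and polarity genes, 7 lay above 0 and 9 below (median -0.03, 0 past 2-fold). They included the ZO-1 relative Tjp3 (102.2 and 77.6 units, -0.39), the transcription factor Ybx3, which binds ZO-1 (-0.28), Lin7c (0.24) and Vapa (0.21). Medians of the tight junction membrane and plaque lists changed sign under 6 and 3 of 13 alternative settings. Over all genes, 52.6% lay above 0 and 47.4% below, while 1.29% were at least 2-fold higher and 2.79% lower. A count of 0 past 2-fold thus does not set lists this short apart from all genes.

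Of 17 adherens junction and desmosome genes, 11 lay above 0 and 6 below, where 52.6% of all genes lay above 0, and their median was 0.12 with 0 past 2-fold. E-cadherin (Cdh1), the main adhesion protein of the epithelium, was at 125.8 and 158.0 units (0.33). The desmosomal cadherins Dsg2 and Dsc2 were at 0.44 and 0.25, and p120 catenin (Ctnnd1) at 0.30. The lowest were the desmosomal plaque genes Evpl (-0.51), Jup (-0.23) and Pkp3 (-0.21). Of the list of EpCAM and its protease system, 5 genes passed the filter and all 5 lay below 0, where 47.4% of all genes did. Their median was -0.35 with 0 past 2-fold, and -0.19 once the GC and length trend had been taken out. EpCAM (Epcam) binds claudin-7 and protects it from breakdown, and it was at 1001 and 757.0 units (-0.40). The protease matriptase (St14), which cleaves EpCAM, was at -0.35, and its inhibitors Spint2 and Spint1 were at -0.52 and -0.34.

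**Figure D4:**
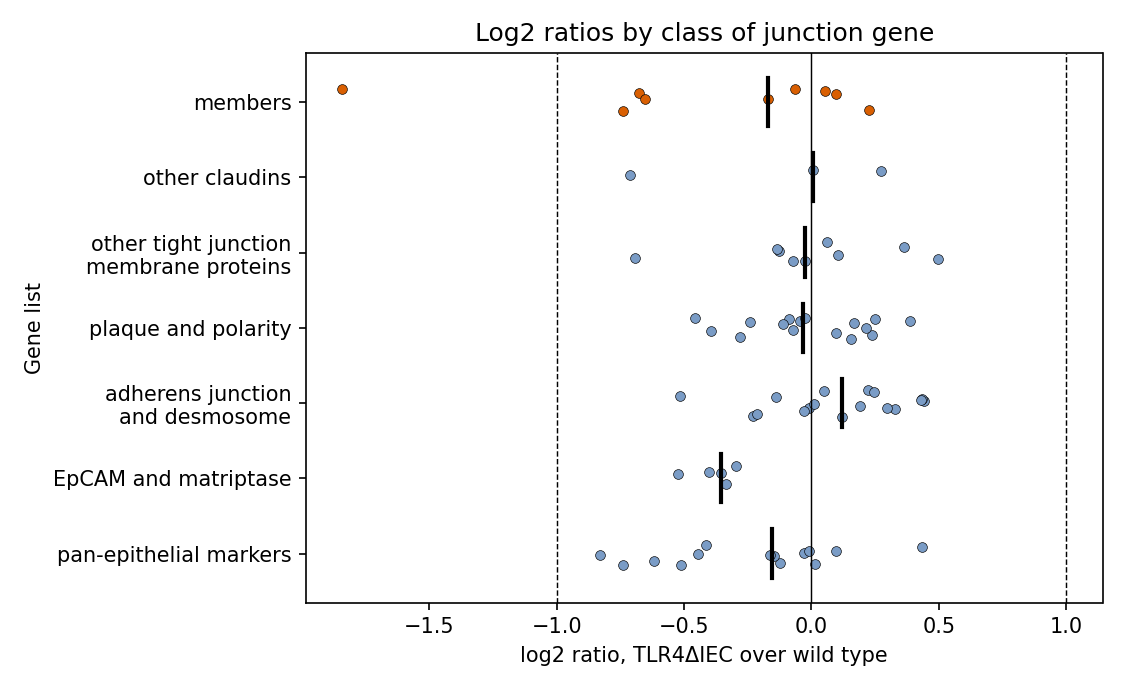
Log2 ratios of TLR4ΔIEC over wild type for the genes of each junction list that passed the filter, 1 point per gene, with black bars at list medians and dashed lines at 2-fold. The EpCAM list (median -0.35) lies wholly below 0, the adherens junction and desmosome list lies on both sides of it (median 0.12), and Cldn4 is the single point beyond 2-fold.

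General epithelial markers lay mostly below 0. Of 14, 11 lay below 0, where 47.4% of all genes did, and 3 above, with 0 past 2-fold. Their median was -0.15, but -0.03 with quantile normalization or with the GC and length trend taken out, and -0.05 when totals without the 50 highest genes set the scale. Their summed level was 9135 and 8589 units. Lowest were the microvillus protein Espn (-0.83), the epithelial transcription factor Elf3 (310.4 and 185.5 units, -0.74) and the brush border cadherins Cdhr5 (-0.62) and Cdhr2 (-0.51). Villin, above, and keratin 20 (Krt20, 0.01) were almost equal, and keratin 19 (Krt19) was higher, at 666.5 and 900.4 units (0.43). Cldn4 was thus lower by more than any of the 14 epithelial markers.

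Other markers moved between the pools as well, and their part in the claudin values was not tested. For comparison, 52.6% of all genes lay above 0, 47.4% lay below 0 and 2.79% were at least 2-fold lower. Of 13 immediate early genes that passed the filter, 11 lay below 0 and 3 were 2-fold lower (summed level of the list 610.2 and 373.2 units), namely Junb (-1.51), Fos (43.3 and 15.3 units, -1.45) and Jun (-1.06), with Btg2 at -0.91. Of 9 adipose tissue genes, 5 passed, all below 0 and 4 of them 2-fold lower, and the fatty acid binding protein Fabp4 was at -0.85. All 9 summed to 236.9 and 115.6 units, of which Fabp4 held 165.5 and 91.2, so the sum rests mostly on that gene. Of 12 listed markers of the epithelium over lymphoid follicles and its M cells, 7 passed, 5 above 0 and 2 below, with a summed level of 138.9 and 211.2 units. Its best covered genes went apart, with Marcksl1 at -1.66 and Ubd, which interferon also induces, at 2.57 (18.6 and 115.4 units). Without Ubd, left out after its value was seen, the other 11 summed to 120.4 and 95.9 units, so the direction of the sum rests on that gene. The M cell receptor Gp2 was under 1 unit in both pools, at 0.987 and 0.267. Endothelial markers summed to 59.3 and 59.1 units (3 of 12 passed, 1 above 0 and 2 below), and smooth muscle markers to 868.8 and 993.2 (7 of 9 above 0), with Acta2 at 0.46, Actg2 at 0.37, Des at 0.11 and Cnn1 at 0.10. Of 10 colon markers, 2 passed, Slc26a3 at 0.24 and Car4 at 0.23, both also genes of the small intestine, while the colon genes Car1 (0.140 and 0.176 units) and Aqp8 (0.107 and 0.127 units) were near 0.

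Sequence features of the transcripts bear on how far single values can be read. None of the 50-base runs in 8 of the 9 transcripts occurs in another annotated transcript of either strand, and for F11r 0.936% of runs do. The read length is not given in the sources used here. Exons of Cldn3 are overlapped over 40 bases, too few for a shared run, on the opposite strand by Wbscr25, which itself was listed at 0.473 and 0.407 units. GC content ran from 41.95% for Ocln to 62.75% for Cldn3, around a median of 50.76% over 8854 genes, and Cldn4, Cldn7 and Cldn23 were at 56.83%, 57.00% and 54.76%. After that trend was taken out, Cldn4 stood at -1.67, Cldn23 at -0.57 and Cldn7 at -0.46.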

How the data were processed

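Per the labels' protocols, frozen ileum gave total RNA that was depleted of ribosomal RNA, fragmented and made into strand-specific Ion Torrent libraries, 1 per mouse. Per the file headers, the deposited signal is average coverage per RefSeq entry, and per the labels each of the 2 columns belongs to the 3 mice of a genotype. The submitters' processing notes name build mm10, TopHat2 2.0.10 and Bowtie2 2.1.0. For the tool behind the coverage and its use of strand, the sources used here give nothing.

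Of 22001 entries in both columns, the highest per symbol was kept (21950 genes). Entries in 1 column only (723 and 686) were left out. Columns were scaled by the median of ratios (factor 1.05), with a pseudocount of 1 unit, which understates ratios of weakly covered genes. Where coverage equals a whole number over a whole length (tolerance 1e-11), bases of reads were recovered. For Ocln this gave only a fraction of the length, and depth in reads is unknown. Levels of different genes are comparable only as far as the authors' averages run over whole transcripts. Positions, lengths and GC content are from GENCODE vM21, where all 9 genes matched by accession, chromosome and strand.

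The genes and lists were chosen with earlier results of these data known. Besides the 9 genes, up to 4 genes per list with the largest absolute ratio and a mean of at least 20 units are named, and Vil1, Krt20, Gp2, Car1 and Aqp8 as defining markers. Krt19, Evpl, Jup, Pkp3, Abhd11, Abhd11os, Mettl27, Wbscr25 and the genes under other observations were named after their values were seen. So were Eln, Stx1a, Cldn13, Tmem270 and Vps37d. Steps were tested on simulated data. Alternatives were 5 scalings, 2 pseudocounts, 3 filters, the mean over entries, genes of equal length only and removal of the GC and length trend. Python 3.11.15, numpy 2.4.6 and pandas 2.3.3 were used.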

Additional observations from a re-analysis of the deposited data

How the results depend on the processing

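No paired analysis was possible because each genotype is 1 pooled column, and for the same reason no mouse could be left out. Under 13 alternatives, Cldn4 stayed at least 2-fold lower, from -1.87 to -1.67, and 0 of the other members passed 2-fold. Cldn3 (-0.74 to -0.31), Cldn7 (-0.66 to -0.46), Cldn23 (-0.70 to -0.57) and F11r (-0.20 to -0.05) stayed below 0 in all 13, and Cldn2 (0.16 to 0.35) and Cldn15 (0.05 to 0.17) above 0. Ocln (-0.23 to 0.04) changed sign in 3 of 13 and Tjp1 (-0.06 to 0.19) in 1 of 12, since a filter at 20 units leaves Tjp1 out. A pseudocount of 5 units gave 65 genes at least 2-fold higher and 146 lower among all genes. The filter on low values gave 206 and 380 at 1 unit, 58 and 130 at 20 units, and 222 and 395 when left out, where more or fewer weakly covered genes are counted. The median of the adipose list ran from -1.60 to -0.85, that of the follicle epithelium list from 0.10 to 0.45 and that of the endothelial list from -0.09 to 0.22. A value was taken as moved when it shifted by 0.1 log2 units or crossed 2-fold. The standing limit is that 1 value per genotype, sequenced in its own pool, carries no information on the spread between mice.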

Other observations

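Of the 16 claudins outside the 9 genes, 13 lay under 1 unit on average and 2 passed the filter. These were Cldn12, at 7.91 and 9.76 units (wild type first), and the endothelial claudin Cldn5, at 6.95 and 3.85 units (log2 ratios 0.27 and -0.71). Cldn8, typical of the colon and kidney, was at 3.86 and 1.13 units. Cldn10 was at 0.30 and 1.21 units, the only one of these claudins with a ratio above 0.5. The entry listed as Cldn25 carries the accessions of the claudin domain gene Cldnd1 and was equal in both pools, at 22.2 and 22.3 units. At the coverage of the other claudins named here, a few reads can move a ratio.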
